A study of Mus musculus with 6 samples.

Results

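Inhibitory coreceptors hold back the B cell antigen receptor, and 4 of their genes, Cd22, Cd72, Fcgr2b and Siglecg, are described here in cultured mouse bone marrow cells with and without cryptochromes. They were found as every probe set whose single listed symbol is one of these genes, which gave 9 of the 45037 probe sets outside the array's controls, and 4 of 18193 named genes. The DKO cells lacked Cry1 and Cry2, the repressors of the circadian clock (arrays DKO 1 to 3), and the WT cells were wild type (arrays WT 1 to 3). All 6 samples were of strain C57BL/6 and were grown with interleukin-7, a cytokine that sustains early B lymphocytes. Total RNA was hybridised to 1 oligonucleotide array per sample. The labels give no age, no clock time and no number of animals, and they leave unstated if the 3 arrays of a genotype stand for separate mice or cultures. The p-values then cover just the spread among these samples, and that spread may be technical. In bulk RNA such as this, fewer cells of a type and less RNA per cell cannot be told apart.

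CD22 and Siglec-G are lectins that bind sialic acid, CD72 is a C-type lectin-like receptor, and Fc gamma RIIB binds the Fc part of IgG in immune complexes. Each carries immunoreceptor tyrosine-based inhibitory motifs in its cytoplasmic tail. The kinase LYN phosphorylates these motifs, the phosphatases SHP-1 and SHIP1 (genes Ptpn6 and Inpp5d) are recruited to them, and signalling from the antigen receptor is dampened. CD72 is carried by B lineage cells from early stages on, CD22 increases on the cell surface as B cells mature, and Fc gamma RIIB is also carried by macrophages and other myeloid cells.

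Cryptochromes repress the factors CLOCK and BMAL1, which bind E-boxes, DNA elements with the core CANNTG and the preferred form CACGTG. For that reason the 250 bases before the annotated start of Cd22, the member with the largest log2 difference of a representative probe set, and of Fcgr2b, which shared its order of arrays, are shown as given by RefSeq for build GRCm38.p6, with each CANNTG in capitals. The Cd22 window is chr7:30879029-30879278 and the Fcgr2b window chr1:170976072-170976321, both on the minus strand, and letters run 5′ to 3′ on the gene's strand.
Cd22: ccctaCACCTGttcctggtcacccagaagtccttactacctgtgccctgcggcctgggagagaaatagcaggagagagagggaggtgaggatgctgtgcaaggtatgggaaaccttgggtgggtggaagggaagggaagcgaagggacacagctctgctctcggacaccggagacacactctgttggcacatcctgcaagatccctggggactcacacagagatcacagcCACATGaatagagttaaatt
Fcgr2b: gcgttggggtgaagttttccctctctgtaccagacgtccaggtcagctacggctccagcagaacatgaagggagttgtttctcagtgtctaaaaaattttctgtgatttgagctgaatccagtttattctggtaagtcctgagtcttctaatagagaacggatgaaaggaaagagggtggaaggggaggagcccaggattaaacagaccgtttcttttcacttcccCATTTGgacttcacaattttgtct
The Cd22 window held 2 CANNTG cores, which begin 245 and 20 bases before the start, and the Fcgr2b window held 1, which begins 24 bases before it. The Cd72 window held 1, at 65 bases, and the 2 listed windows of Siglecg held 0. The letters CACGTG, which read the same on both strands and are contained in CANNTG, were in 0 of these 5 windows. Over 32851 such windows of 27025 genes, 66.2% held CANNTG and 6.02% held CACGTG. A match in such a window is a description of its letters and no evidence of binding.

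Signals are the deposited intensities, on a linear scale. For comparisons they were turned into log2(intensity + 16), and each array was centred on its median. A gene is represented by its probe set with the highest mean, and differences are DKO minus WT in log2 units. As a check of the labels, the single Cry1 probe set had an intensity of 359, 399 and 545 in DKO 1 to 3, against 1533, 1502 and 955 in WT 1 to 3, with no overlap. The single Cry2 probe set was dimmer than that of Cry1, with 133 to 178 in DKO and 102 to 145 in WT, and was not lower in DKO. After centring, its DKO arrays lay wholly above its WT arrays, with a difference of 0.70 (limma adjusted p = 0.822), and of 0.29 without WT 2. Whether these probe sets lie in the deleted parts of the genes is not given in the labels. WT 2 stood apart from the other arrays. The ratio of 3′ to 5′ signal of the Actb control was 824 on WT 2 and 1.47 to 2.05 on the other 5 arrays, that of Gapdh was 132 against 0.838 to 1.72, and the median intensity was 115 against 44.0 to 55.3. DKO 3 correlated most closely, across probe sets, with a WT array (0.982, with WT 3), and DKO 1 with DKO 2 (0.977). Results are therefore given with all 6 arrays, without WT 2, and without both WT 2 and DKO 3. The median difference over all 27022 tested probe sets was 0.21 with all 6 arrays and -0.02 without WT 2, and differences are to be read against it.

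Of the 9 probe sets of the coreceptor genes, 8 were bright enough to be tested, and 0 of these 8 passed an adjusted p of 0.05 by limma with all 6 arrays, where 0.0074% of all tested probe sets did. At an unadjusted p under 0.05 the count was also 0 of 8, where 3.12% of all tested probe sets lay under it. In 0 of the 8 did the arrays of the genotypes lie apart, where DKO lay wholly above WT in 6.97% of all tested probe sets and wholly below in 3.29%. The DKO mean was higher in 7 of the 8, beside 64.9% of all tested probe sets. Without WT 2 it was higher in 2 of the 8, beside 47.4% of all, and lower in 6, beside 52.6% of all. Again 0 of the 8 passed, where 0.0259% of all tested probe sets did, and 0 had an unadjusted p under 0.05, where 4.35% of all did. The sign of most of these differences with all 6 arrays thus rested on WT 2.

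**Figure D1:**
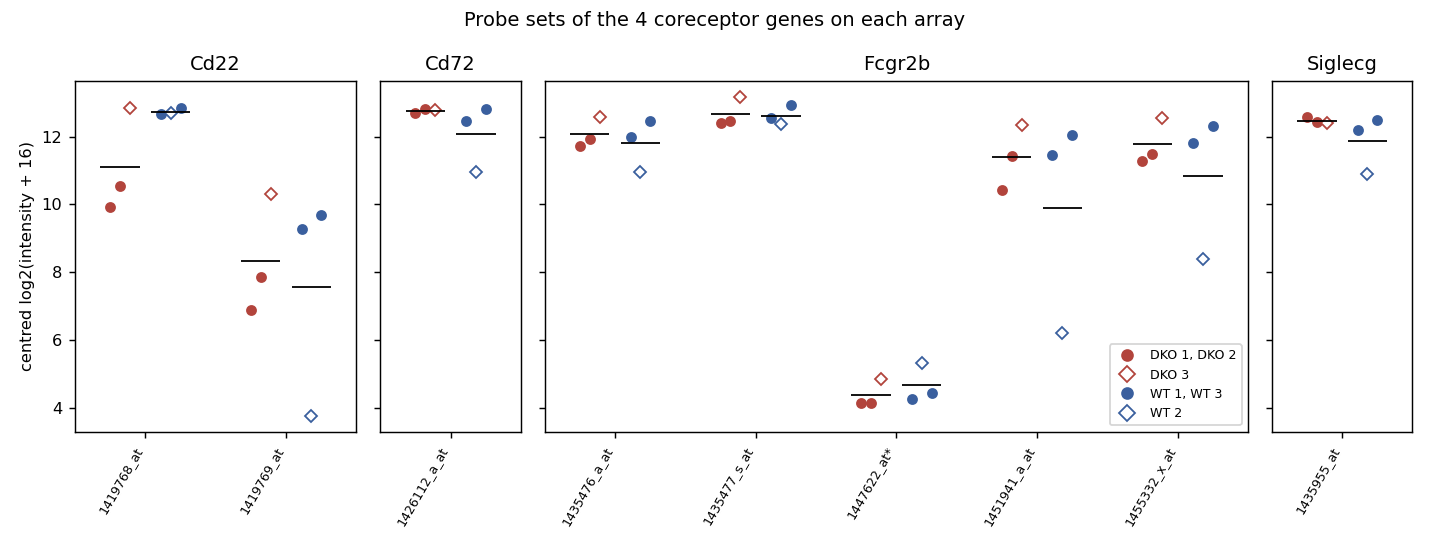
Centred log2(intensity + 16) of the 9 probe sets on each array, DKO in red left of WT in blue, with open diamonds for DKO 3 and WT 2 and black lines for group means (n = 3 each); the asterisk marks the probe set that was not tested. Both Cd22 probe sets are low on DKO 1 and DKO 2 and high on DKO 3, and WT 2 is the lowest array of both Cd72 and Siglecg.

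Cd22 was low on 2 of the 3 knockout arrays and at wild type level on the third. Its representative probe set, 1419768_at, read 923, 1394 and 5926 in DKO 1 to 3, against 6079, 11739 and 6089 in WT 1 to 3. DKO 1 and DKO 2 lay below every WT array, and DKO 3, at 12.85 on the centred log2 scale, lay level with the WT arrays (12.66 to 12.84). The means were 11.11 ± 1.53 in DKO and 12.73 ± 0.094 in WT (SD, n = 3 each). DKO minus WT came to -1.62 (SE, the standard error of the fit, 0.74, 95% interval -3.35 to 0.11), and limma gave an adjusted p of 0.822. Of all tested probe sets, 0.374% had a lower difference. The spread within DKO, which came from DKO 3, was thus about as large as the difference between the genotypes.

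The other Cd22 probe set, 1419769_at, is dimmer and depended on WT 2. It read 96.5, 201 and 1005 in DKO 1 to 3, against 566, 8.08 and 666 in WT 1 to 3. DKO 1 and DKO 2 again lay below WT 1 and WT 3, and DKO 3 was the highest of all arrays. With all 6 arrays its difference was 0.77 (SE 1.64, limma adjusted p = 0.886), opposite in sign to the brighter probe set. Without WT 2 the difference was -1.13 (SE 0.90), beside -1.63 (SE 0.78) for the brighter one, and both had a limma adjusted p of 0.948. On WT 2 the brighter probe set was close to its level on WT 1 and WT 3 and the dimmer one was not.

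With DKO 3 and WT 2 both set aside, 2 arrays of each genotype were left and Cd22 passed the test. The differences were -2.50 for 1419768_at (SE 0.23, limma adjusted p = 0.00267) and -2.11 for 1419769_at (SE 0.36, limma adjusted p = 0.0189). In this fit 4.07% of all tested probe sets passed, 1.75% of all as lower in DKO, and the 2 Cd22 probe sets were the only ones of the 8 that did. DKO 3 was set aside with its likeness to the WT arrays known, so these values describe DKO 1 and DKO 2 against WT 1 and WT 3 and do not extend to the genotype.

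**Figure D2:**
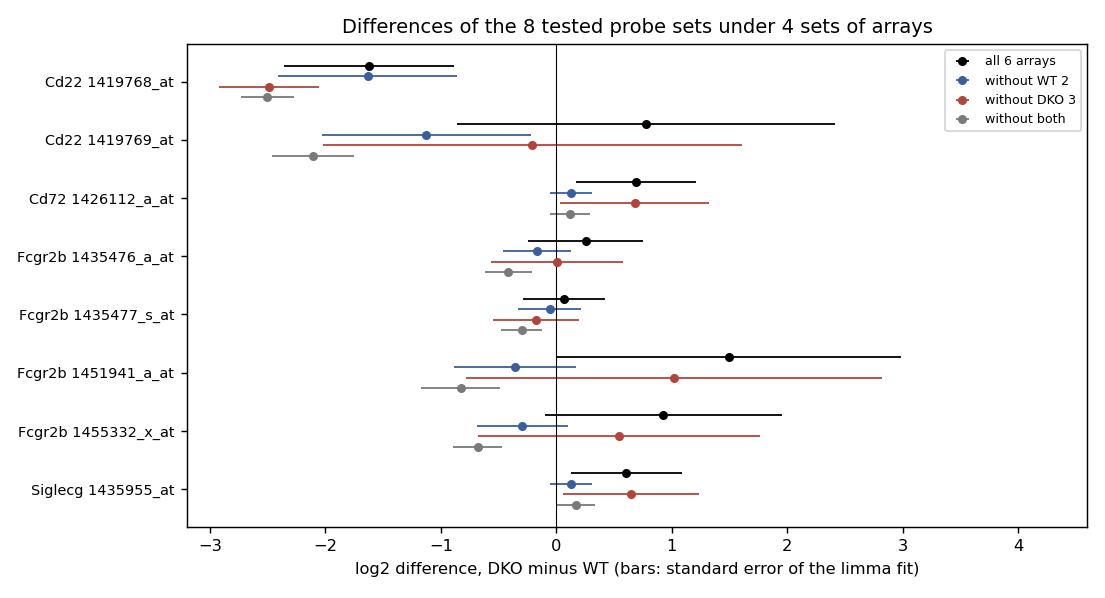
Log2 difference, DKO minus WT, of the 8 tested probe sets (rows), with the standard error of the limma fit as bars, for all 6 arrays, without WT 2, without DKO 3, and without both. The brighter Cd22 probe set is negative in all 4 fits (-1.62, -1.63, -2.49 and -2.50), and the bars of Cd72 and Siglecg shorten and move towards 0 when WT 2 is left out.

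Cd72, the C-type lectin-like coreceptor, had no low values on DKO 1 and DKO 2. Its single probe set, 1426112_a_at, read 6317, 6775 and 5721 in DKO 1 to 3, against 5286, 3472 and 6046 in WT 1 to 3. Apart from WT 2, the lowest, the arrays spanned 0.37 log2 units, with WT 1 at the low and WT 3 at the high end. With all 6 arrays the difference was 0.69 (SE 0.52, limma adjusted p = 0.822). Without WT 2 it was 0.13 (SE 0.18, 95% interval -0.30 to 0.55, limma adjusted p = 0.951), an interval that holds 0.

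Siglecg, which encodes the sialic acid-binding Siglec-G, was likewise not low on DKO 1 and DKO 2. Its single probe set, 1435955_at, read 5852, 5189 and 4314 in DKO 1 to 3, against 4386, 3359 and 4800 in WT 1 to 3. The groups overlapped, with WT 2 again lowest after centring and the other 5 arrays within 0.39 log2 units. The difference was 0.61 with all 6 arrays (SE 0.48, limma adjusted p = 0.822). It was 0.13 (SE 0.18, 95% interval -0.30 to 0.56) without WT 2 (limma adjusted p = 0.951). Whether Cd22 differed between genotypes by more than Cd72 or Siglecg was not tested.

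Fcgr2b, the IgG receptor, was bright in both genotypes and its sign between them turned with the processing. Its representative probe set, 1435477_s_at, read 5202, 5283 and 7408 in DKO 1 to 3, against 5613, 9312 and 6509 in WT 1 to 3. WT 2 was the highest array on the deposited scale and the lowest, at 12.37, after centring, which subtracts the higher median of that array. The difference was 0.07 (SE 0.36, 95% interval -0.78 to 0.91, limma adjusted p = 0.957), and it was -0.06 without WT 2, -0.18 without DKO 3 and -0.11 with quantile normalization.

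The other Fcgr2b probe sets spread more widely on WT 2. Probe set 1451941_a_at read 1297, 2569 and 4179 in DKO 1 to 3, against 2613, 114 and 3547 in WT 1 to 3, with a difference of 1.49 (SE 1.49) that was -0.35 without WT 2. Probe set 1455332_x_at read 2369, 2675 and 4791 in DKO 1 to 3, against 3371, 579 and 4246 in WT 1 to 3, with a difference of 0.93 that was -0.29 without WT 2. Probe set 1435476_a_at read 3206, 3626 and 4870 in DKO 1 to 3, against 3858, 3508 and 4711 in WT 1 to 3, with a difference of 0.26 that was -0.17 without WT 2. All 3 were thus lower on DKO 1 than on WT 1 and WT 3, and highest on DKO 3. The fifth, 1447622_at, was below the median of every array, with 0.831, 0.517 and 7.21 in DKO 1 to 3, against 1.97, 54.6 and 2.02 in WT 1 to 3, and was not tested. Of these probe sets, 1435476_a_at, 1435477_s_at and 1455332_x_at are listed with the same source transcript, so they are not independent readings.

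Cd22 and Fcgr2b shared an order of arrays that Cd72 and Siglecg did not. Setting WT 2 aside, DKO 1 was lowest, followed by DKO 2, WT 1, WT 3 and DKO 3, in both Cd22 probe sets and in all 4 tested Fcgr2b probe sets. This order was taken from 1419768_at of Cd22, so its own match was given in advance. It held in 6 of the 8 tested coreceptor probe sets, all of Cd22 or Fcgr2b, and in 1989 of all 27022, 7.36%. Those 6 are repeated readings of these genes, not independent ones, and cannot be weighed against that share. The order was wider in Cd22, where the 5 arrays spanned 2.91 and 3.43 log2 units, than in the 4 Fcgr2b probe sets, where they spanned 0.76 to 1.92. Some of its steps were near ties. On 1419768_at of Cd22, WT 3 and DKO 3 were at 12.84 and 12.85 on the centred log2 scale. On 1451941_a_at of Fcgr2b, DKO 2 and WT 1 were at 11.43 and 11.45. The order was noticed in these data and carries no test.

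Markers of several cell types moved on the same arrays as Cd22. The median of 10 mature B cell markers, among them Ms4a1, Cr2 and Fcer2a, as deviations of each gene from its own 6-array mean, came to -0.94, -0.66 and 1.19 on DKO 1 to 3, against -0.05, -0.72 and 0.93 on WT 1 to 3. That of 9 granulocyte markers, among them Mpo, Elane and S100a8, was -3.88, -3.19 and 1.61 on DKO 1 to 3, against 2.90, 1.18 and 1.00 on WT 1 to 3. Of these markers 9 of 9 tested had a lower DKO mean, beside 3765 of all 12627 tested genes. The medians of both lists were low on DKO 1 and DKO 2 and high on DKO 3, as Cd22 was, and that of the mature B cell list was also low on WT 2. Of the mature B cell markers 5 of 8 tested had a lower DKO mean and 3 a higher one. Without WT 2 it was lower in 7 of 8, beside 6104 of all 12627 tested genes. Single mature B cell markers differed, and Cr2 and Fcer2a were too dim to be tested. On the centred log2 scale Ms4a1 had 6.77, 7.34 and 12.80 in DKO 1 to 3, against 9.98, 9.39 and 12.63 in WT 1 to 3. Cd37 had 10.31, 10.80 and 11.24, against 10.17, 7.53 and 11.14, so its DKO 1 and DKO 2 values lay above WT 1. The medians of 9 pro-B and pre-B cell markers, among them Rag1, Vpreb1 and Il7r, lay between -0.27 and 0.15 on the DKO arrays and between -0.36 and 0.13 on the WT arrays, with 0 of the 9 genes below the array median on any array, so early B lineage RNA was present in all 6 samples. Single genes of that list were not level: Dntt had 13.38, 13.40 and 10.41 on the centred log2 scale in DKO 1 to 3, against 10.46, 10.95 and 9.26 in WT 1 to 3, and Lef1 was also highest on DKO 1 and DKO 2. Rag1 and Rag2 differed by -1.05 and -1.08 without WT 2, and by -0.06 and -0.26 with all 6 arrays. The part of these cell types in the Cd22 values was not tested.

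For Fcgr2b the markers of macrophages and monocytes stand beside it, since such cells carry the receptor. The median of 11 such genes, among them Csf1r, Adgre1 and Cd68, was -0.56, -1.06 and 0.47 on DKO 1 to 3, against 1.12, 0.22 and -0.14 on WT 1 to 3. Of these genes 9 of 10 tested had a lower DKO mean, beside 3765 of all 12627 tested genes. The summed intensity of the 11 genes was 17123 to 28523 on the DKO arrays and 20086 to 105023 on the WT arrays. Lyz2 and Ctss made up most of that sum on DKO 1 (12911 and 9673) and DKO 2 (6642 and 8290), where Adgre1 read 192 and 173 and Cx3cr1 read 14.5 and 11.8. After centring, the median of this list was highest on WT 1 and Fcgr2b on DKO 3, while on the deposited scale both the summed intensity of the list and the representative Fcgr2b probe set were highest on WT 2. Their part in the Fcgr2b values was not tested.

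Of the other marker lists, T and NK cells and mast cells and basophils were high on DKO 1 and DKO 2. Their medians were 0.71 and 1.30, and 1.79 and 1.29, on those arrays, and between -0.91 and -0.33 on the other 4. A higher DKO mean was found in 5 of 6 and 4 of 4 tested genes. Of all 12627 tested genes it was found in 8862, and in 6523 without WT 2. The counts of the lists below stand beside the same shares. In the T and NK cell list 5 of 7 genes lay below the array median on DKO 3, WT 1 and WT 3, Cd4 on every array. Plasma cell markers had a higher DKO mean in 5 of 6 tested genes, with Igha, named after its values were seen, past the threshold at 7.56 (limma adjusted p = 0.0435). Without WT 2 the plasma cell markers were higher in 3 and lower in 3 with a median of -0.11, and Sdc1 was at -1.24 with all 6 arrays. Dendritic cell markers had a higher DKO mean in 4 of 5, stromal and endothelial markers in 2 of 3, and erythroid and megakaryocyte markers in 1 of 4. Tnfrsf17 of plasma cells, Xcr1 of dendritic cells, Hba-a1 of erythroid cells and Col1a1, Cxcl12 and Pdgfrb of stromal cells lay below the median of every array.

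**Figure D3:**
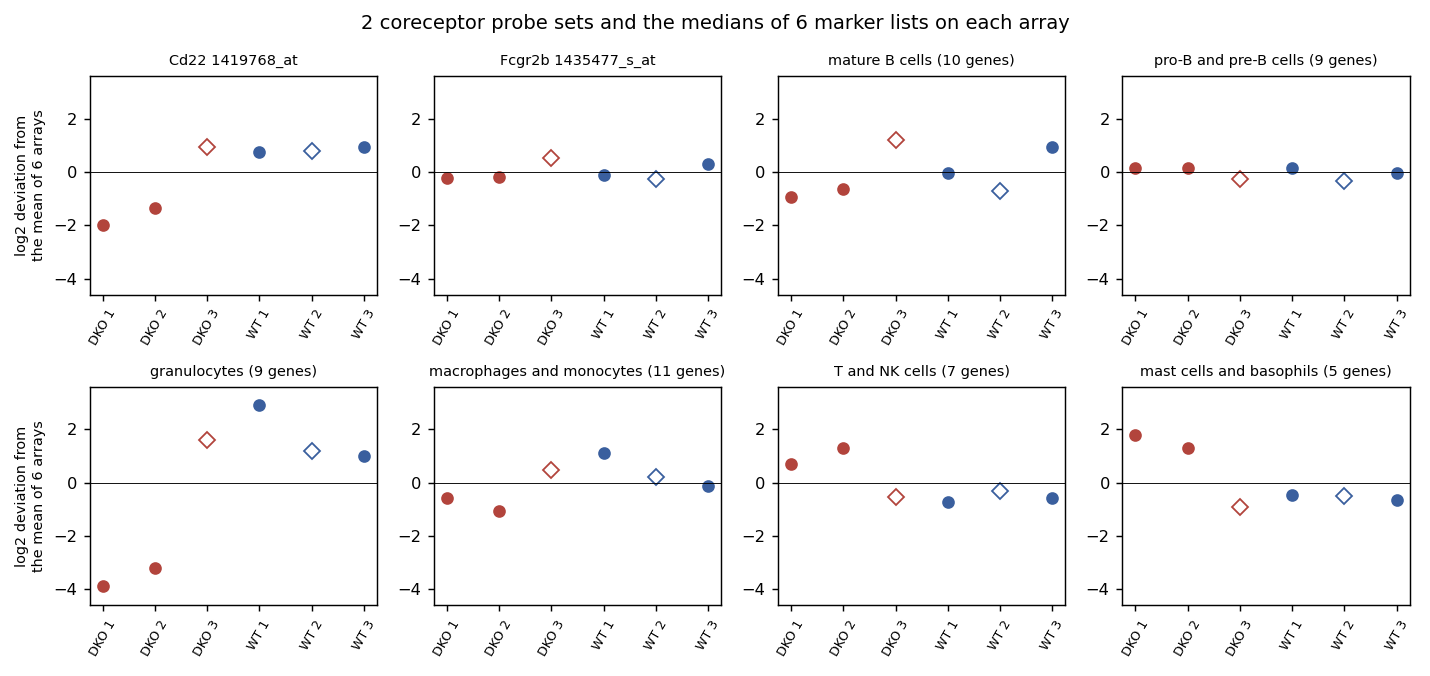
Log2 deviation from the mean of the 6 arrays, on each array, for the representative probe sets of Cd22 and Fcgr2b and for the medians of 6 marker lists; DKO red, WT blue, open diamonds for DKO 3 and WT 2. Cd22 and the granulocyte list are low on DKO 1 and DKO 2 alone, while T and NK cell and mast cell lists are high there.

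The effectors that the inhibitory motifs recruit did not pass the test either. Of 14 listed, 13 had a named probe set and were tested, Lyn not being analysed here, and 0 passed with all 6 arrays or without WT 2. The DKO mean was higher in 13 of 13 with a median of 0.79, where 8862 of all 12627 tested genes were higher with a median of 0.30. Without WT 2 it was higher in 7 of 13 with a median of 0.24, where 6523 of 12627 were higher. One of the 13, Inppl1, which encodes the SHIP1 relative SHIP2 and is named after its values were seen, had an unadjusted p under 0.05, with a difference of 2.49, and of 1.98 without WT 2.

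Ptpn6, which encodes SHP-1, the phosphatase used by CD22, CD72 and Siglec-G, followed the order of Cd22 in its brighter probe set. That probe set, 1460188_at, read 1294, 2077 and 5940 in DKO 1 to 3, against 3886, 144 and 5177 in WT 1 to 3. DKO 1 and DKO 2 lay below WT 1 and WT 3, DKO 3 above them, and WT 2 far below all. The difference was 1.09 with all 6 arrays (SE 1.59, limma adjusted p = 0.84) and -0.85 without WT 2 (SE 0.66, limma adjusted p = 0.948). Without DKO 3 as well it was -1.54 (limma adjusted p = 0.0265), in the fit where 4.07% of all tested probe sets passed. The other Ptpn6 probe set, 1456694_x_at, differed by -0.51 with all 6 arrays and by -0.43 without WT 2, and had another order of arrays.

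Inpp5d, which encodes SHIP1, the phosphatase used by Fc gamma RIIB, read 3003, 3269 and 3307 in DKO 1 to 3, against 2780, 710 and 3998 in WT 1 to 3. The groups overlapped through WT 3, with a difference of 0.98 (SE 0.88) that was -0.08 without WT 2. Dok3, an adaptor that attenuates antigen receptor signalling, read 1993, 1671 and 1105 in DKO 1 to 3, against 1340, 884 and 1239 in WT 1 to 3. Its difference was 0.75 (SE 0.55), and 0.24 without WT 2.

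Genes for the ligands of these receptors, and for the sialic acid that CD22 and Siglec-G bind, gave 0 of 7 past the threshold. The DKO mean was higher in 7 of 7 with a median of 0.41, and in 4 of 7 with a median of 0.09 without WT 2. Of all 12627 tested genes it was higher in 8862, and in 6523 without WT 2. St6gal1, the transferase that adds the linkage of sialic acid recognised by CD22, read 6800, 7504 and 7718 in DKO 1 to 3, against 6509, 6132 and 8118 in WT 1 to 3, a difference of 0.41 (SE 0.44), and of -0.01 without WT 2. Cmah, which makes the glycolyl form of sialic acid, differed by 0.77 (SE 0.35), and by 0.59 without WT 2, in its brightest probe set, while its other 3 tested probe sets did not share a sign (0.91, -0.29 and -0.66). Sema4d, a ligand of CD72, read 3448, 3094 and 2637 in DKO 1 to 3, against 2833, 2950 and 2387 in WT 1 to 3. After centring, the DKO arrays of Sema4d lay above the WT arrays, with a difference of 0.48 (SE 0.40, limma adjusted p = 0.822), and of 0.21 without WT 2.

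On the activating side, 0 of 10 tested genes of the B cell receptor and its coreceptor passed. The DKO mean was higher in 8 of 10, and in 7 of 10 without WT 2, with medians of 0.82 and 0.10. Of all 12627 tested genes it was higher in 8862, and in 6523 without WT 2, with medians of 0.30 and 0.01. Blnk, an adaptor of the receptor that is named after its values were seen, had an unadjusted p under 0.05, with a difference of 1.18. Cd79b, a signalling chain of the receptor, read 20492, 22357 and 19294 in DKO 1 to 3, against 15256, 4212 and 20321 in WT 1 to 3, a difference of 1.23 (SE 0.80), and of 0.21 without WT 2. Its partner Cd79a differed by 1.21 (SE 0.93), and by 0.10 without WT 2. Cd79a read 878, 1739 and 1242 in DKO 1 to 3, against 1142, 214 and 1133 in WT 1 to 3, so apart from WT 2 it was lowest on DKO 1 and highest on DKO 2.

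Other inhibitory receptors of leukocytes also gave 0 calls, with a lower DKO mean in 9 of 11 tested, and in 7 of 11 without WT 2. Of all 12627 tested genes 3765 had a lower DKO mean, and 6104 without WT 2. Pirb, an inhibitory receptor of B cells and myeloid cells, read 49.7, 50.3 and 216 in DKO 1 to 3, against 327, 65.7 and 138 in WT 1 to 3. After centring it was lowest on WT 2 (5.54), followed by DKO 1 (6.10) and DKO 2 (6.14). Pirb differed by -0.38 (SE 0.86), by -1.21 without WT 2, and by 0.27 without WT 1. Without both DKO 3 and WT 2 it passed at -1.89 (limma adjusted p = 0.0317). In that fit Btla of the same list (-2.59) and Fcrla of the other Fc receptors (-1.20) also passed as lower in DKO. Of the inhibitory effectors, Inppl1 (2.87) and Pag1 (1.14) passed as higher, and Ptpn6 as lower. In that fit 4.07% of all tested probe sets passed. Its values describe DKO 1 and DKO 2 against WT 1 and WT 3 and do not extend to the genotype. Cd5, an inhibitory coreceptor of T cells and B-1 cells, was dim throughout, at 42.5 to 66.5 in DKO and 46.8 to 84.2 in WT, a difference of 0.16 (SE 0.29) that turned to -0.15 without centring.

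The other Fc receptors, activating for the most part, gave 0 of 5 past the threshold, with a lower DKO mean in 5 of 5 with all 6 arrays and without WT 2 and medians of -0.46 and -0.75. Of all 12627 tested genes 3765 had a lower DKO mean, and 6104 without WT 2. Fcgr3, an activating IgG receptor that Fc gamma RIIB counters in myeloid cells, read 362, 275 and 801 in DKO 1 to 3, against 1293, 365 and 424 in WT 1 to 3. Its groups overlapped, and its difference of -0.12 (SE 0.78) was -0.78 without WT 2 and 0.56 without WT 1. Fcer1g, the signalling chain shared by activating Fc receptors, read 616, 403 and 1287 in DKO 1 to 3, against 3492, 1864 and 593 in WT 1 to 3. It differed by -0.87 (SE 0.76), and by -1.08 without WT 2. Both genes were highest on WT 1, as was the median of the macrophage markers after centring, although single markers such as Csf1r were highest on WT 2.

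**Figure D4:**
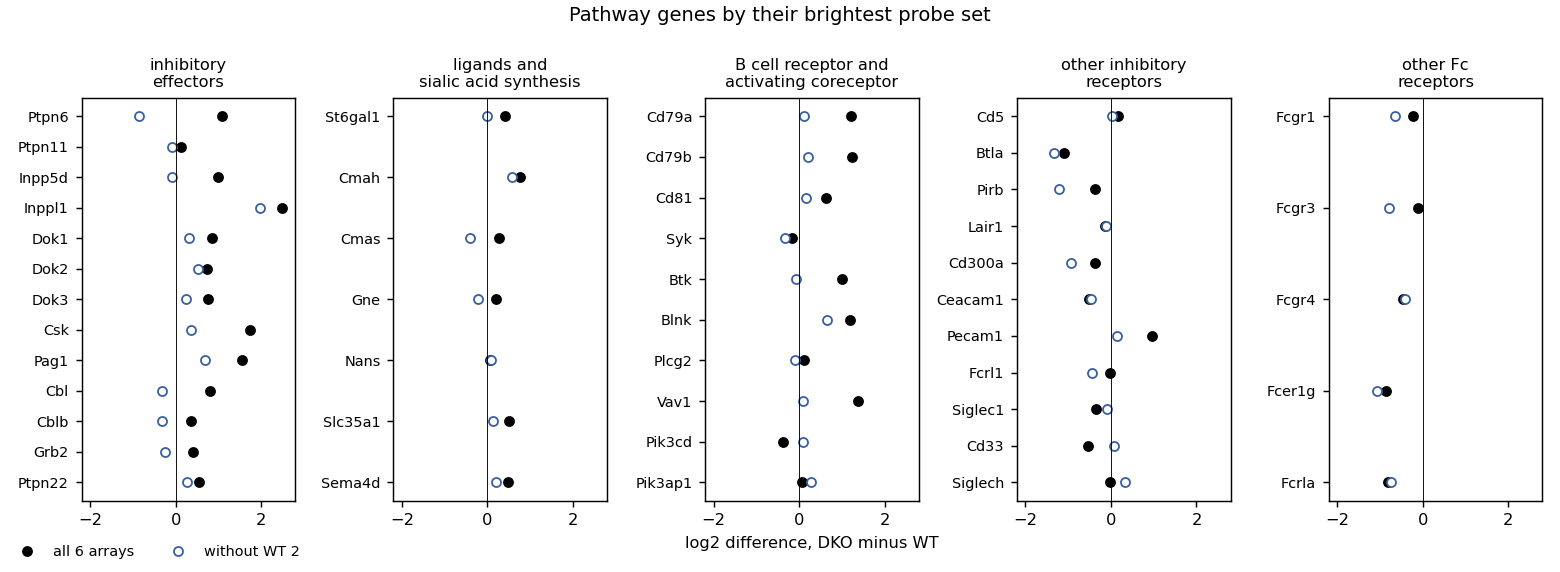
Log2 difference, DKO minus WT, of each tested gene of the 5 pathway lists by its brightest probe set, for all 6 arrays (black) and without WT 2 (open blue). Most effector and receptor-complex genes move towards 0 without WT 2, and all 5 other Fc receptor genes stay left of 0.

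The genes whose profile over the arrays was most like each coreceptor were found by the root mean square difference of centred log2 values, each profile taken against its own mean. Over 6 arrays Cd22 was nearest to Il6ra, at 0.29, then Lgi2 and Rab7b, at 0.30 and 0.32, where the median of 12626 genes was 1.36. Over 5 arrays, without WT 2, Stac2, Ifi30 and Il6ra were nearest, at 0.19, 0.21 and 0.23. Il6ra, the receptor chain for interleukin-6, was in both sets. On the centred log2 scale Il6ra read 5.60, 5.88 and 8.15 in DKO 1 to 3, against 8.55, 8.76 and 8.23 in WT 1 to 3, so it too was low on DKO 1 and DKO 2 only.

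The other coreceptors had smaller distances to their neighbours, but also to genes at large. Their medians over all genes were 0.62 for Cd72, 0.56 for Fcgr2b and 0.59 for Siglecg over 6 arrays, against 1.36 for Cd22. Raw distances are thus not comparable between Cd22 and the others. Cd72 was nearest to Herpud2, Phkg2 and Arglu1, at 0.042 to 0.051 over 6 arrays. Siglecg was nearest to Rasa1, Nek9 and Ptgr2, at 0.044 to 0.050, and Fcgr2b to Gtf2h5, Dut and Mknk2, at 0.064 to 0.065. Without WT 2 the nearest were Mtmr12, Tmem219 and H2-Eb2 for Cd72, Kdm6a, Wdr78 and Rasa1 for Siglecg, and Eif6, Trmo and Rars for Fcgr2b, all at 0.027 or less. Among the coreceptors themselves, Cd72 and Siglecg were closest, at 0.14 over 6 arrays and 0.11 over 5. Siglecg ranked 201 among the genes nearest to Cd72 over 6 arrays and 723 over 5. Cd22 lay 1.55 from Cd72, 1.53 from Siglecg and 1.07 from Fcgr2b over 6 arrays. Profiles over so few arrays, which share WT 2, describe likeness of values only.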

How the data were processed

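Total RNA of 6 samples, 3 DKO and 3 WT, had been biotin-labelled and hybridised to 1 array each. The deposited table holds intensities on a linear scale. MAS5, its version not stated, is the tool named by the submitters' processing notes. A mean of 500.0, with 2% of the values trimmed at each end, was found on each array. No genome build is named in the labels. Of 45037 probe sets besides 64 controls, 34945 had 1 symbol, 932 several and 9160 none. Symbols were updated by gene identifier for 34741, and 204 kept the listed one.

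Values were analysed as log2(intensity + 16), which understates differences of dim probe sets, with each array centred on its median (array medians differed by 1.13 log2 units). Probe sets whose mean lay above percentile 40 entered the test with limma 3.58.1 in R 4.3.3 (group as the single term, variances with a trend, two-sided, Benjamini-Hochberg adjustment over all 27022). The fit was also run on simulated data with independent noise, a smaller spread than observed and no deviating array. That run does not test the fit on arrays such as WT 2 or DKO 3. Python 3.11.15, pandas 2.3.3 and matplotlib 3.10.9 were used. Groups came from the labels. The members, the 5 pathway lists and 10 marker lists, and the rule for named genes (all probe sets of the members, fixed pathway genes, any pathway gene past the threshold, and the 3 nearest profiles per member) were chosen with earlier results of these data known.

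Alternatives were quantile normalization, other or no centring, pseudocounts of 1 and 64, no filter or percentile 60, variances without trend or robust, array weights, arrays left out, the replicate number as a block, and the median over probe sets. Quantile normalization without WT 2 was added after seeing the data. Deviations of same-numbered DKO and WT arrays had correlations of -0.15, -0.0019 and 0.33 for numbers 1 to 3. That of number 3 was the highest of all DKO and WT pairs, but DKO 1 and WT 2, of unlike number, had 0.32. The numbers were therefore not taken as pairs. Whether DKO 3 and WT 3 shared more than their number was not tested. Not every listed gene had a named probe set, and those without are not analysed here.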

Additional observations from a re-analysis of the deposited data

How the results depend on the processing

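With 3 arrays per genotype, 1 of the WT arrays having high 3′ to 5′ ratios, the number of arrays limits every comparison. The filter, variance and block alternatives cannot move a difference, so a kept sign was given in advance there. For Cd72 and Siglecg the median over probe sets is also their single probe set, and that median has no p-value. Cd72 and Siglecg kept their sign in all 20 alternatives each, at 0.11 to 1.07 and 0.13 to 0.92. They stayed short of the threshold wherever it was applied. Cd22 kept its sign in all 20, with 1 array left out at -2.49 to -1.03, and passed in 2, with array weights (-2.14) and without both DKO 3 and WT 2 (-2.50). The median of its 2 probe sets was -0.42. Fcgr2b turned sign with array weights (-0.14), centring over tested probe sets (-0.23), no centring (-0.25), a pseudocount of 64 (-0.038), quantile normalization (-0.11, and -0.036 without WT 2), and without both arrays (-0.30). With 1 array left out it ranged from -0.18 to 0.23, and the median of its probe sets was 0.59. The weights were 0.0623 on WT 2 and 4.39 on DKO 2, estimated gene by gene because limma's default estimate did not converge.

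The number of coreceptor probe sets with a higher DKO mean, 7, was 2 without WT 2, with that array left out and quantile normalization, without both arrays and with array weights, and with 1 array left out it ranged from 2 to 7. All probe sets called, 2 with all 6 arrays, numbered 0 with quantile normalization, centring over tested probe sets, no centring, a pseudocount of 1 and the replicate block, 1 with a filter at percentile 60 and with robust variances, 5 with quantile normalization without WT 2, 922 with array weights and 1099 without both arrays, and 0 to 7 with 1 array left out. With the replicate number as a block, which cannot move a difference in this balanced design, Cd22 had a limma adjusted p of 0.804 at its -1.62. No coreceptor passed in that fit.

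Among the other named genes, Cd5 turned sign with centring over tested probe sets (-0.13), no centring (-0.15) and without both arrays (-0.017), and ranged from 0.03 to 0.32 with 1 array left out. Without both arrays, Inpp5d (-0.19), Ptpn6 (-1.54) and St6gal1 (-0.12) turned too. With quantile normalization without WT 2, Inpp5d (-0.068) and Ptpn6 (-0.83) turned, as Ptpn6 did with array weights (-1.03). With 1 array left out, Fcgr3 ranged from -0.78 to 0.56, Inpp5d from -0.08 to 1.69, Pirb from -1.21 to 0.27, Ptpn6 from -0.85 to 2.21 and St6gal1 from -0.0059 to 0.74. Without both arrays Fcgr3 was at -1.29, and Pirb passed at -1.89 (limma adjusted p = 0.0317), as it did with array weights at -1.90 (limma adjusted p = 0.048). The causes were not tested, beyond which array was left out.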
